A study of Mus musculus with 11 samples.

Results

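The miR-290-295 cluster is a group of mouse miRNA hairpins that lie close together on chromosome 7. Its members were chosen by name, as every listed mature miRNA of the hairpins mir-290a to mir-295 from either arm, and 17 of the 1096 mature miRNAs in the small RNA tables met this rule. They come from 9 hairpins, 8 of which have both arms listed, whereas mir-290b has its 5p arm listed. The 2 small RNA libraries came from spermatogonial progenitor cells (SPCs), the Thy1-positive germ cells of young mouse testes that were kept in culture on layers of growth-arrested STO fibroblasts with GDNF, GFRA1 and FGF2. The labels give the strain as C57BL/6 and the age as postnatal day 6, and the study's methods name B6;129S-Gt(Rosa)26Sor/J mice for the cultures. Control SPCs (genotype label Mov10 Vector) carried the lentiviral pLKO.1 control plasmid, shVector. Knockdown SPCs (genotype label Mov10 knockdown) carried a pLKO.1 plasmid with an shRNA against Mov10 (shMov10), so both groups were transduced with lentivirus and grown on feeders. Each group has 1 library, the labels of these libraries do not name the shRNA, and the methods speak of triplicate samples without saying whether these were pooled. No value below has a replicate error, and Mov10 mRNA is not seen in small RNA libraries, so its depletion could not be checked here.

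The miRNAs of this cluster are best known from mouse embryonic stem cells and the early embryo, where they are among the most abundant miRNAs, and several of them are known as embryonic stem cell-specific cell cycle regulators. Those of the forward strand are cut from a shared primary transcript, first by Drosha and then by Dicer, and each hairpin can release a 5p and a 3p strand. An Argonaute protein holds 1 of these strands and pairs its seed, bases 2 to 8 from the 5′ end, with target mRNAs. Several 3p strands of the cluster share the letters AAGUGC near the 5′ end with the miR-302 and miR-17 families. In the male germ line, primordial germ cells express the cluster, and spermatogonial cultures can give rise to pluripotent cells, for which these miRNAs serve as markers.

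The mature sequences are shown here grouped by seed, because the seed decides which members can act on the same targets. RefSeq sequences (GRCm38.p6) were found for 908 of the 1096 listed miRNAs and for 16 of the 17 members; miR-292a-3p is given by name. Capitals mark bases 2 to 8. The 3p strands with the seed AAGUGCU, or with a seed that shares its bases 2 to 7, were as follows.
miR-295-3p: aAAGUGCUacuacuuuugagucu
miR-294-3p: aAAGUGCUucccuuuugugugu
miR-291a-3p: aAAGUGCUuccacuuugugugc
miR-291b-3p: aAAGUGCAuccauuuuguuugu
miR-290a-3p: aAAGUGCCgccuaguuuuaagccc

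The 3p strand of mir-293 carries the GUGC letters directly after its first base and so has another seed.
miR-293-3p: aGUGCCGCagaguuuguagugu

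The 5p strands fell into 2 main kinds, those that begin with the letters CUCAAA at base 2 and those with the seed AUCAAAG.
miR-292a-5p: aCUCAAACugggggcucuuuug
miR-293-5p: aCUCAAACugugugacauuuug
miR-290a-5p: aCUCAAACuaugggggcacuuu
miR-294-5p: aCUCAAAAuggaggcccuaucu
miR-295-5p: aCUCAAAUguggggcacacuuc
miR-291a-5p: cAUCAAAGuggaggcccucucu
miR-291b-5p: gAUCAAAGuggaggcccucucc

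The remaining members come from mir-290b and mir-292b, hairpins annotated on the opposite strand of mir-290a and mir-292a, and are shown because they share genomic bases with other members.
miR-292b-5p: aCUCAAAAccuggcggcacuuuu
miR-292b-3p: aAGAGCCCccaguuugaguau
miR-290b-5p: gCUUAAAAcuaggcggcacuuu

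In GRCm38 the 9 hairpins span 2216 bp of chromosome 7, from 3218626 to 3220841. On the forward strand they follow each other as mir-290a (3218626 to 3218708), mir-291a (3218919 to 3219000), mir-292a (3219189 to 3219270), mir-291b (3219482 to 3219560), mir-293 (3220343 to 3220422), mir-294 (3220641 to 3220724) and mir-295 (3220773 to 3220841). The widest space between neighbouring hairpins is 782 bp, between mir-291b and mir-293, and only 48 bp separate mir-294 from mir-295. On the reverse strand mir-290b lies at 3218638 to 3218695, inside mir-290a, and mir-292b at 3219198 to 3219259, inside mir-292a. In RefSeq the coordinates of every hairpin except mir-290a and mir-290b fall within the noncoding gene D7Ertd143e (3218784 to 3221015, forward strand). This gene is antisense to mir-292b, and its annotated start lies beyond a gap of 75 bp after mir-290a. The same coordinates lie within the 3′ UTR of Nlrp12, a reverse strand gene of the NLR family, for which GENCODE vM21 gives 3218784 to 3222475. This UTR is antisense to all of these hairpins except mir-292b. RefSeq extends Nlrp12 further, to 3218643.

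**Figure D1:**
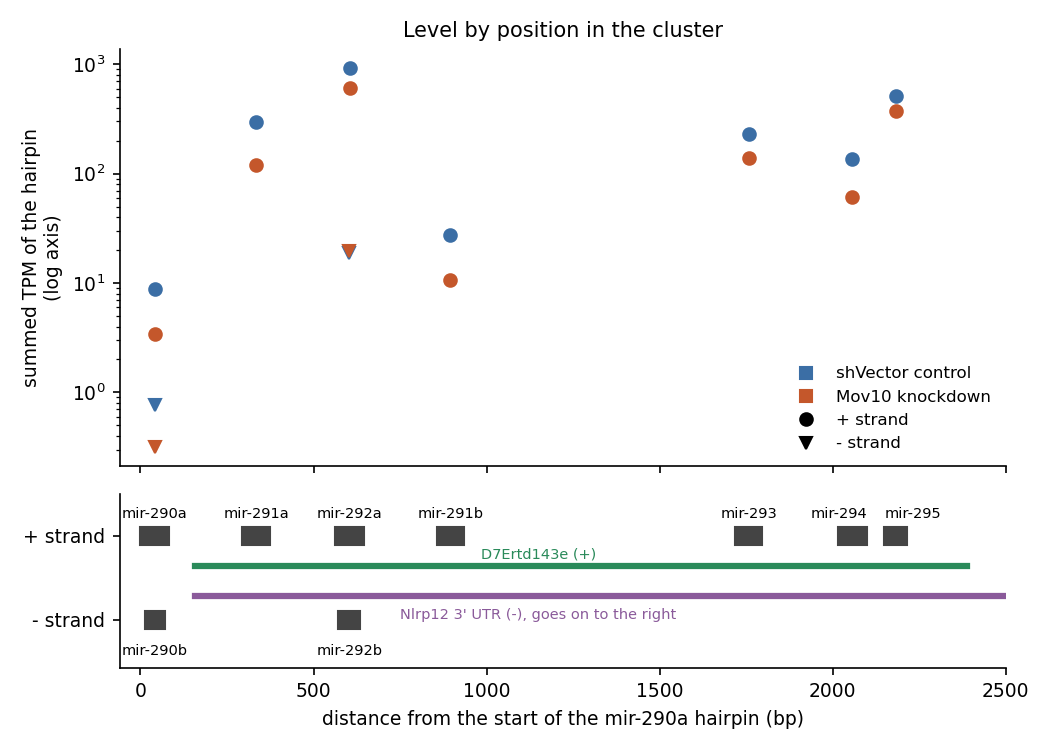
Summed TPM of each hairpin (upper panel, log axis) and annotated features (lower panel) against the distance in bp from the start of mir-290a, for the control (blue) and Mov10 knockdown (orange) libraries, 1 library each, with circles for forward and triangles for reverse strand hairpins. Levels do not follow the position along the locus, mir-292a is highest at 921 and 606 TPM, and the symbols of mir-292b lie almost on top of each other.

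The cluster as a whole was lower in Mov10 knockdown SPCs. All 17 members had reads in both libraries, in sum 22652 (control) and 4249 (knockdown), from library totals of 10518277 and 3194363 reads. The deposited TPM is the number of reads per 1000000 reads of that total, without a division by length, since a mature miRNA is read from end to end; the efficiency of adaptor ligation differs between sequences, so that TPM orders reads and not molecules. The summed level was 2154 TPM in the control and 1330 TPM in the knockdown, a log2 ratio of -0.70 (exact 95% interval -0.74 to -0.65). Of all reads on miRNAs, the cluster held 0.235% in the control (95% Wilson interval 0.232 to 0.238%) and 0.152% in the knockdown (0.148 to 0.157%). All intervals cover counting error only. In RNA from whole cultures, fewer cells that express the cluster and less RNA per cell cannot be told apart.

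A shift of this size has to be read against that of the other miRNAs. The fold changes used for calls were log2 ratios of TPM + 0.1, for miRNAs above 1.5 TPM in the higher library, of which there were 607. A decrease over 1.5-fold was found for 10 of the 16 members above this level and for 41.5% of the 607 miRNAs, and an increase over 1.5-fold for 0 members and for 15.8% of the 607. The remaining 6 members changed less. One of the 10, miR-290a-3p, was above 1.5 TPM only in the control; with the minimum applied to both libraries, 9 of 15 members and 37.5% of 518 miRNAs were reduced. When the libraries were scaled to the median ratio, 6 of the 16 members and 31.5% of the 607 miRNAs were reduced over 1.5-fold. The median fold change of the 16 members was -0.74 on the log2 scale, and that of the 607 miRNAs was -0.37. Values below 0 were seen for 13 of the 16 members and for 391 of the 607 (64.4%). Because low read numbers scatter widely, the comparison was repeated for miRNAs with at least 500 control reads, a limit chosen after the values were seen. Of the 8 members at this depth, 6 were reduced over 1.5-fold with a median of -0.74, beside 36.0% of 258 miRNAs with a median of -0.26. This limit uses the control alone, which favours miRNAs that are higher there, and it was not applied to both libraries. Among the 6, miR-293-3p and miR-291a-3p passed it with 690 and 646 control reads and had 39.8 and 29.7 TPM in the knockdown.

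**Figure D2:**
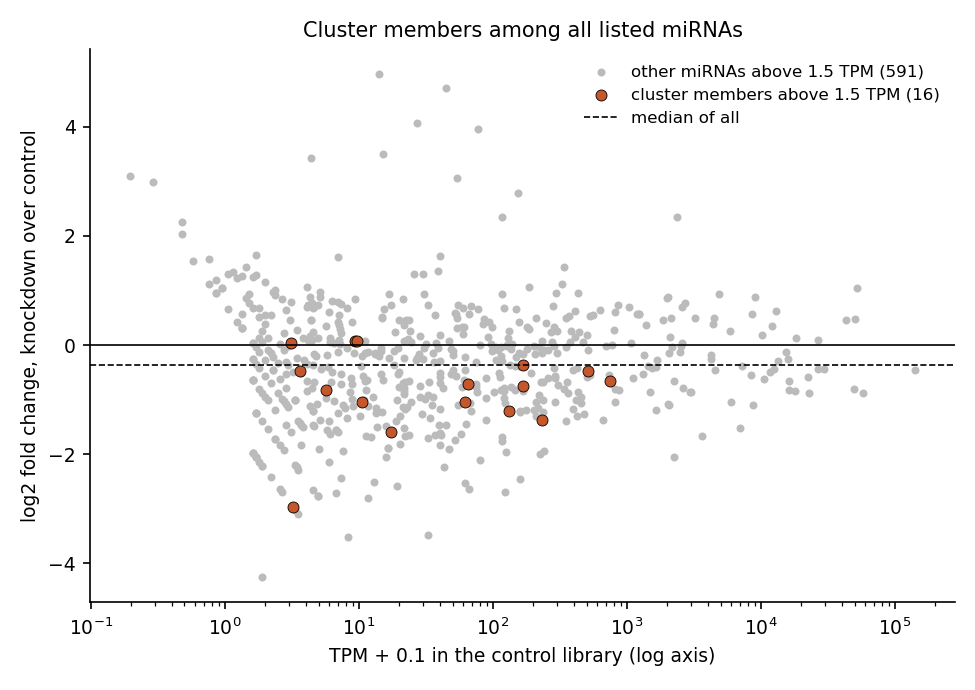
Log2 fold change of TPM + 0.1, Mov10 knockdown over control, against TPM + 0.1 in the control library (log axis), for the 607 miRNAs above 1.5 TPM in the higher library, with the 16 cluster members in orange and the median of all miRNAs dashed. Of the orange points 13 lie below 0, and the cloud of all miRNAs is itself centred below 0, at -0.37.

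Reads of each member were then compared between the libraries with a two-sided exact binomial test conditional on the library totals, adjusted by Benjamini-Hochberg over all 1096 miRNAs, which compares these libraries and not the conditions. The adjusted p-value was below 0.05 for 11 members, all lower in the knockdown, where 21.4% of the 1096 miRNAs were called lower. No member was called higher (0 of 17), where 10.7% of the 1096 miRNAs were called higher. All 8 members with at least 500 control reads were called lower, where 54.3% of the 258 miRNAs at this depth were. Here too the depth is judged in the control alone, which favours a call of lower. The 6 members that were not called had at most 100 control reads. Of the 11 called members, 9 were also reduced over 1.5-fold, and the other two, miR-295-3p and miR-292a-3p, changed less than that. The log2 ratios given for single members below are without a pseudocount, with exact 95% intervals, and adjusted p-values are from this exact test.

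**Figure D3:**
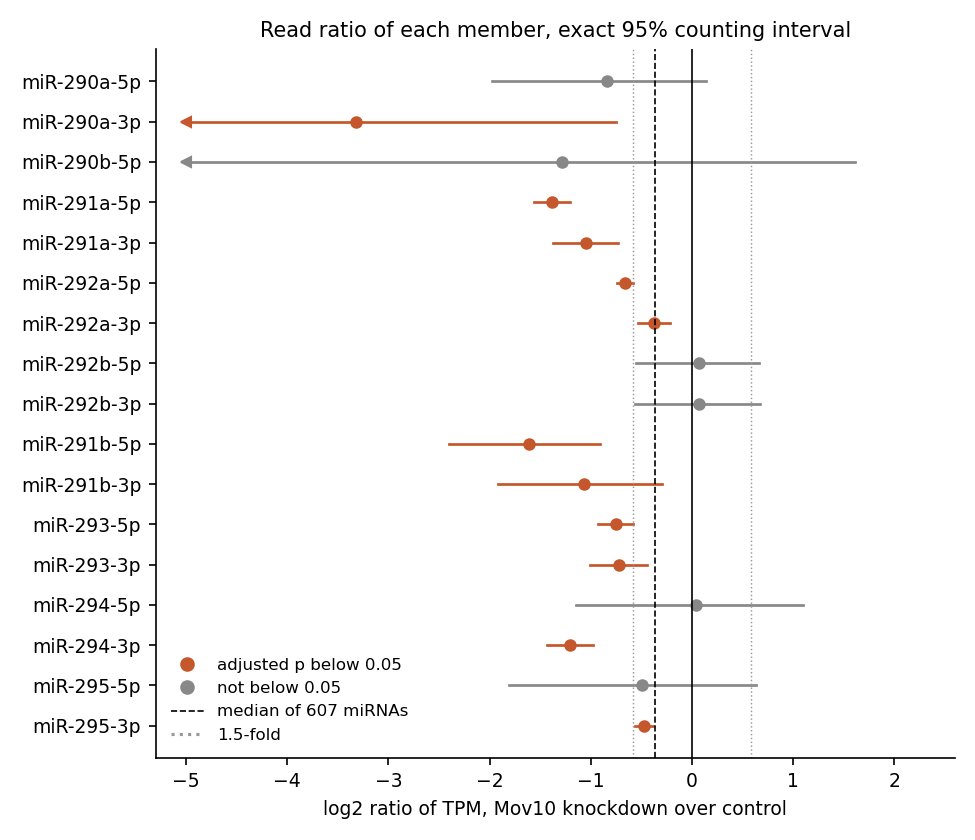
Log2 ratio of TPM, Mov10 knockdown over control, for each of the 17 members along the cluster, with exact 95% counting intervals; orange marks an adjusted p-value below 0.05, arrows mark intervals that go on beyond the axis, the dashed line is the median of 607 miRNAs and dotted lines mark 1.5-fold. The well-counted members lie to the left of 0 at differing distances, from -0.37 for miR-292a-3p to -1.38 for miR-291a-5p, and both strands of mir-292b lie at 0.

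Among the 3p strands with the seed AAGUGCU, miR-295-3p had the most reads. Its control level was 5372 reads (511 TPM) and its knockdown level 1177 reads (368 TPM), a log2 ratio of -0.47 (-0.56 to -0.38, adjusted p = 8.1e-25, exact test). miR-294-3p, the strand most often used to stand for the cluster in embryonic stem cells, had 1393 reads (132 TPM) and 184 reads (57.6 TPM), a log2 ratio of -1.20 (-1.43 to -0.98, adjusted p = 5.5e-31, exact test). Although they share a seed and their hairpins are 48 bp apart, these strands did not change alike. The ratio of miR-294-3p to miR-295-3p was lower in the knockdown by 0.73 on the log2 scale (log2 ratio of ratios -0.73, exact 95% interval -0.98 to -0.49), a measure that does not depend on the library totals; this pair and the other pairs below were chosen after their values were seen. miR-291a-3p had 646 reads (61.4 TPM) in the control and 95 reads (29.7 TPM) in the knockdown, a log2 ratio of -1.05 (-1.37 to -0.73). Its change could not be separated from that of miR-294-3p, with a ratio of ratios of 0.15 (-0.24 to 0.55). Together these strands had 705 TPM in the control and 456 TPM in the knockdown (log2 ratio -0.63, -0.71 to -0.55), so the sum followed miR-295-3p, which holds most of its reads.

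The strands that share only bases 2 to 7 of this seed were rarer. miR-291b-3p had 110 reads (10.5 TPM) in the control and 16 reads (5.01 TPM) in the knockdown, with an adjusted p-value of 0.015 (exact test, log2 ratio -1.06, -1.92 to -0.30). miR-290a-3p had 33 reads (3.14 TPM) and 1 read (0.313 TPM), a log2 ratio of -3.33 whose interval ran from -8.67 to -0.75 (adjusted p = 0.0074, exact test). With 1 read in the knockdown it was below the level of 3 reads taken as the smallest detectable, which is 0.285 TPM for the control and 0.939 TPM for the knockdown; so was miR-290b-5p. All 5 strands with the letters AAGUGC at bases 2 to 7 were called lower, beside 21.4% of all 1096 miRNAs, and 1 of these calls rests on the 33 and 1 reads of miR-290a-3p. In sum they went from 718 to 461 TPM (log2 ratio -0.64, -0.72 to -0.56). miR-293-3p, with its seed GUGCCGC, had 690 reads (65.6 TPM) in the control and 127 reads (39.8 TPM) in the knockdown, a log2 ratio of -0.72 (-1.01 to -0.45). miR-292a-3p had 1772 reads (168 TPM) and 416 reads (130 TPM), the smallest decrease among the called members, with a log2 ratio of -0.37 (-0.53 to -0.22, adjusted p = 6.3e-06, exact test). That ratio is close to the median of the 607 miRNAs, and the call was lost when the libraries were scaled to the median ratio (adjusted p = 0.31, exact test) or by TMM (adjusted p = 0.14, exact test). The call of miR-291b-3p was lost in the same way, with adjusted p-values of 0.10 and 0.081 (exact test).

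The 5p strands with the seed CUCAAAC had 9733 of the 22652 cluster reads of the control and 1847 of the 4249 of the knockdown, more than any other seed among the members with a sequence. miR-292a-5p, the member with the most reads, had 7918 reads (753 TPM) in the control and 1520 reads (476 TPM) in the knockdown, a log2 ratio of -0.66 (-0.74 to -0.58, adjusted p = 2.5e-65, exact test). Among all listed miRNAs it ranked 84 by control reads and 101 by knockdown reads. miR-293-5p had 1756 reads (167 TPM) and 317 reads (99.2 TPM), a log2 ratio of -0.75 (-0.93 to -0.58, adjusted p = 1.5e-18, exact test). Relative to miR-292a-5p, which shares its seed, the change of miR-293-5p was -0.09 (-0.28 to 0.10) on the log2 scale. miR-290a-5p had 59 reads (5.61 TPM) and 10 reads (3.13 TPM), and its log2 ratio of -0.84 (-1.97 to 0.14) was not separated from counting error (adjusted p = 0.23, exact test). In sum the strands with this seed had 925 TPM in the control and 578 TPM in the knockdown, a log2 ratio of -0.68 (-0.75 to -0.61).

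The 5p strands of mir-291a and mir-291b had the largest decreases among members with over 100 control reads. miR-291a-5p had 2448 reads (233 TPM) in the control and 286 reads (89.5 TPM) in the knockdown, a log2 ratio of -1.38 (-1.56 to -1.20, adjusted p = 7.7e-66, exact test). miR-291b-5p had 181 reads (17.2 TPM) and 18 reads (5.63 TPM), a log2 ratio of -1.61 (-2.40 to -0.91, adjusted p = 1.1e-06, exact test). These strands have the seed AUCAAAG and the same base at 20 of 22 positions, all 20 in 1 run, and reads shorter than the mature sequence may not tell them apart. Their change relative to each other was 0.23 (-0.50 to 1.04) on the log2 scale, and in sum they went from 250 to 95.2 TPM (log2 ratio -1.39, -1.57 to -1.22). Compared with miR-292a-5p, miR-291a-5p was lower by a further log2 ratio of -0.72 (-0.92 to -0.52), so the 5p strands of neighbouring hairpins also differed.

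The rare 5p strands showed no decrease that could be separated from counting error. miR-294-5p, the minor strand of mir-294, had 32 reads (3.04 TPM) in the control and 10 reads (3.13 TPM) in the knockdown, a log2 ratio of 0.04 (-1.15 to 1.10). miR-295-5p, the minor strand of mir-295, had 37 reads (3.52 TPM) and 8 reads (2.50 TPM), a log2 ratio of -0.49 (-1.80 to 0.64). The interval of miR-295-5p holds the log2 ratio of miR-295-3p, -0.47, whereas that of miR-294-5p ends just above the -1.20 of miR-294-3p. The intervals of both mir-294 strands overlap, however, with -1.43 to -0.98 for miR-294-3p. Their share of 5p reads was not called different between the libraries (adjusted p = 0.14, Fisher's exact test).

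Of the hairpins on the reverse strand, mir-292b had enough reads for a comparison and mir-290b did not. miR-292b-5p had 100 reads (9.51 TPM) in the control and 32 reads (10.0 TPM) in the knockdown, a log2 ratio of 0.08 (-0.55 to 0.66). miR-292b-3p had 97 reads (9.22 TPM) and 31 reads (9.70 TPM), a log2 ratio of 0.07 (-0.56 to 0.67). The hairpin mir-292b thus had 197 and 63 reads, and its level relative to all other members was higher in the knockdown, with a ratio of ratios of 0.78 (0.34 to 1.20). Against mir-292a, the hairpin on the other strand of the same bases, the ratio of ratios was 0.68 (0.24 to 1.10). The mature strands of these hairpins overlap on opposite strands, miR-292b-5p with miR-292a-3p over 22 nt and miR-292b-3p with miR-292a-5p over 19 nt. How the authors' counting used strand is not given in the sources used here, so the reads of mir-292b are uncertain. For the overlapping strands themselves the ratio of ratios was 0.45 (-0.20 to 1.06) for miR-292b-5p against miR-292a-3p and 0.74 (0.10 to 1.34) for miR-292b-3p against miR-292a-5p. miR-290b-5p, which overlaps miR-290a-3p over 22 nt, had 8 reads (0.761 TPM) and 1 read (0.313 TPM) and was the member below 1.5 TPM in both libraries. Without mir-290b and mir-292b, a choice made after the values were seen, the log2 ratio of the summed level was -0.70. The number of members called lower had to stay at 11, because no strand of these hairpins had been called (21.4% of all 1096 miRNAs were called lower).

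**Figure D4:**
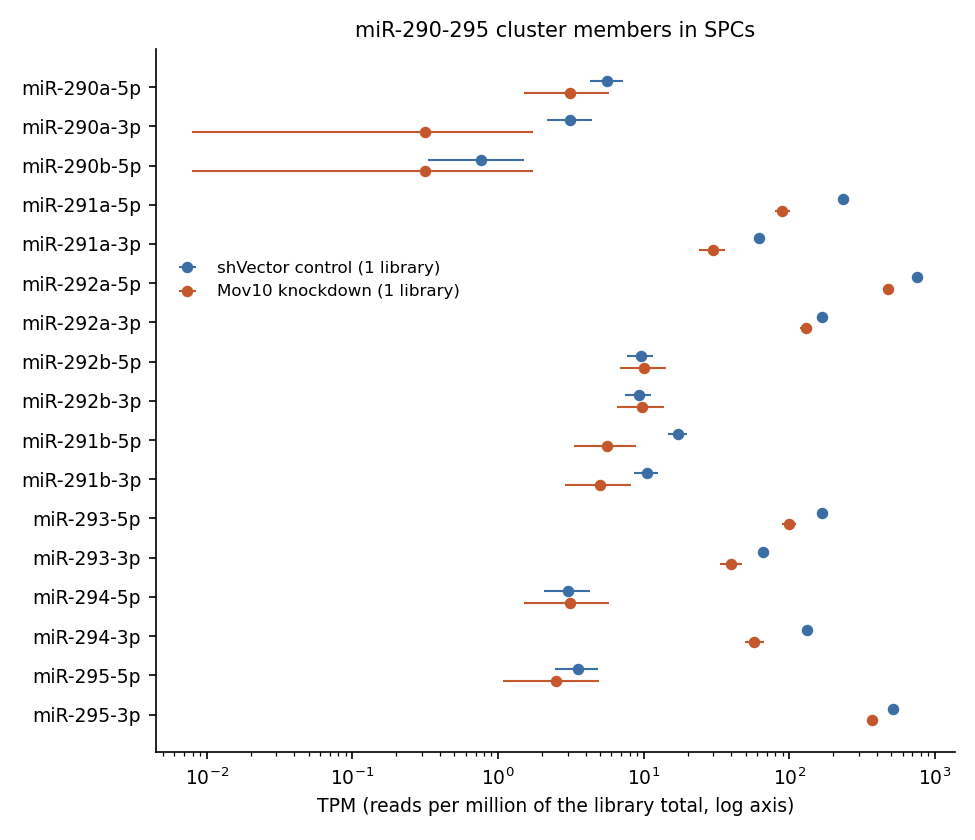
TPM of each of the 17 members (log axis) in the control (blue) and Mov10 knockdown (orange) libraries, 1 library each, in the order of the hairpins, with exact 95% Poisson intervals for counting error. Levels run from 0.761 to 753 TPM in the control. The intervals of the libraries lie apart for the 11 members called lower, but overlap for both strands of mir-292b.

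Ordered by level, miR-292a-5p and miR-295-3p came first in both libraries, and together they held 58.7% (control) and 63.5% (knockdown) of the cluster's reads. miR-291a-5p was the third in the control, with 10.8% of the cluster's reads, and the fifth in the knockdown, with 6.73%. miR-292a-3p moved the other way, from the fourth place with 7.82% to the third with 9.79%. In the control, 7 of the 16 pairs of neighbours in this order had overlapping counting intervals, among them miR-292a-3p with miR-293-5p and miR-293-3p with miR-291a-3p. In the knockdown 10 of the 16 pairs overlapped, including every pair from miR-292b-5p downwards. Relative to the rest of the cluster, 4 members had an interval above 0, namely miR-295-3p at 0.30 (0.19 to 0.41), miR-292a-3p at 0.35 (0.19 to 0.52) and both strands of mir-292b. The interval was below 0 for 5 members, namely both strands of mir-291a, miR-291b-5p, miR-294-3p and miR-290a-3p, and it included 0 for 8 members. Between these libraries the decrease was thus uneven over the cluster by more than counting error.

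Seen by hairpin, the decrease did not follow the position along the locus. The log2 ratio was -1.34 (-2.40 to -0.44) for mir-290a, -1.30 (-1.46 to -1.15) for mir-291a, -0.60 (-0.68 to -0.53) for mir-292a and -1.38 (-1.94 to -0.86) for mir-291b. Beyond the wide space it was -0.74 (-0.89 to -0.60) for mir-293, -1.16 (-1.38 to -0.94) for mir-294 and -0.47 (-0.56 to -0.38) for mir-295. The hairpins with the highest level, mir-292a and mir-295, had the smallest decreases on the forward strand, and hairpins with larger decreases lay on both sides of mir-292a and directly before mir-295.

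Arm balance, the share of 5p reads among the reads of both arms, is a further measure that does not depend on the library totals. mir-292a gave mostly 5p reads, 81.7% (95% Wilson interval 80.9 to 82.5%) in the control and 78.5% (76.6 to 80.3%) in the knockdown. Of the 8 hairpins with both arms, mir-292a was the one with a difference by Fisher's exact test (two-sided, adjusted p = 0.0097 over 336 hairpins), and 15.2% of these 336 hairpins were called. mir-291a gave 79.1% and 75.1% 5p reads (adjusted p = 0.31, Fisher's exact test) and mir-293 gave 71.8% and 71.4% (adjusted p = 1, Fisher's exact test). The 3p strand dominated mir-294, with a 5p share of 2.25% (control) and 5.15% (knockdown; adjusted p = 0.14, Fisher's exact test), and mir-295, with 0.684% and 0.675%. mir-292b gave both arms in like numbers, 50.8% 5p reads in each library. For mir-290a the shares were 64.1% and 90.9%, the latter from 11 reads, and for mir-291b 62.2% and 52.9%. Over the cluster, the 9 listed 5p strands went from 12539 to 2202 reads (log2 ratio of TPM -0.79, -0.86 to -0.72) and the 8 listed 3p strands from 10113 to 2047 reads (-0.59, -0.65 to -0.52). The log2 ratio of ratios of these summed reads, 5p to 3p, was -0.20 (-0.30 to -0.11), a value that depends on how many reads each hairpin gives. Counted by member the order was the opposite, with a median log2 fold change of -0.71 for the 5p and -0.88 for the 3p strands above 1.5 TPM. Of these 3p strands, miR-290a-3p was above 1.5 TPM only in the control. Without it the middle 3p strand is miR-293-3p, at -0.72, so the gap between the medians rests on miR-290a-3p. The exact test called 4 of the 9 5p and 7 of the 8 3p strands lower (21.4% of all 1096 miRNAs). These counts follow read depth, because every strand that was not called had at most 100 control reads. Among the 3p strands, the calls of miR-292a-3p and miR-291b-3p were lost by the median ratio and by TMM.

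**Figure D5:**
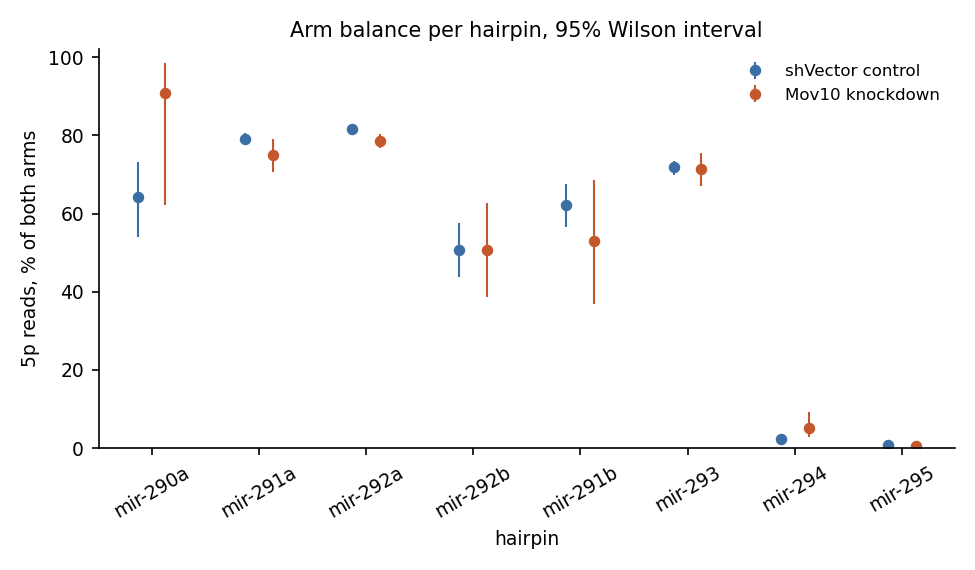
Share of 5p reads among the reads of both arms (%) for the 8 hairpins with both arms listed, in the control (blue) and Mov10 knockdown (orange) libraries, with 95% Wilson intervals. The arm with more reads is the same in both libraries for all 8 hairpins, from 81.7% 5p for mir-292a to 0.684% for mir-295 in the control. The intervals of mir-292b in both libraries, and of mir-291b in the knockdown, include equal shares of both arms, so no leading arm can be named there.

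Other miRNAs with a related seed were few, and the changes of the miR-17 family differed between its members. Outside the cluster, 3 of 892 miRNAs with a sequence had AAGUGC at bases 2 to 7, and another 6, the miR-17 family, had these letters 1 position later, at bases 3 to 8. They are shown by 1 member of each kind, with bases 2 to 8 in capitals for miR-302d-3p and miR-350-5p and bases 3 to 8 in capitals for miR-17-5p.
miR-302d-3p: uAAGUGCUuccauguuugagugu
miR-350-5p: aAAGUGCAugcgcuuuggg
miR-17-5p: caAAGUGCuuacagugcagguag

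The miR-302 cluster is the other large miRNA cluster of pluripotent cells and is typical of a later, primed state. Only miR-302d-3p and miR-302b-3p were listed, with 2 and 1 control reads and 0 knockdown reads, all at or below 3 reads, so no ratio is given. A count of 0 in the knockdown library allows up to 0.939 TPM. No entry of the miR-371 to miR-373 stems was among the listed miRNAs. miR-350-5p had 652 reads (62.0 TPM) and 171 reads (53.5 TPM), a log2 ratio of -0.21 (-0.46 to 0.03). The miR-17 family, which acts in cell proliferation and is widely expressed, had 5036 TPM in the control and 4307 TPM in the knockdown (log2 ratio -0.23, -0.25 to -0.20), most of it from miR-93-5p. With the deposited TPM, 5 of its 6 members were called lower, beside 21.4% of all 1096 miRNAs. A decrease over 1.5-fold was seen for 2 of them, beside 41.5% of the 607, and their median was -0.40, beside the median of -0.37 over the 607 miRNAs. The reduced ones were miR-17-5p, with 3223 and 588 reads and a log2 ratio of -0.74 (-0.86 to -0.61), close to that of the cluster, and miR-106a-5p, with 38 and 3 reads and a log2 ratio of -1.94 (-4.28 to -0.29), which was above 1.5 TPM only in the control and at the 3-read level in the knockdown. For miR-93-5p, which had 44228 and 11807 reads, the log2 ratio was -0.19 (-0.22 to -0.16). Scaling to the median ratio raises every log2 ratio by 0.25. That is more than the decrease of miR-93-5p or of the family's sum, so the direction of both depends on the scaling. The log2 ratio of the cluster relative to the sum of this family was -0.47 (-0.52 to -0.41). No outside miRNA shared a run of 15 bases or more with a member, the longest being 11 bases.

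The miRNAs whose levels were most like those of miR-292a-5p, by the distance of log2(TPM + 0.1) over these 2 libraries, were miR-883a-3p (distance 0.023), miR-423-3p (0.094), miR-130b-3p (0.11), miR-465a-5p (0.22) and miR-127-3p (0.28). The nearest, miR-883a-3p, had 754 TPM in the control and 468 TPM in the knockdown. With 1 value per group such likeness describes 2 numbers for each miRNA.

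Levels of miRNAs typical of the cells that the cultures could hold were set beside these results. Of 11 miRNAs named for germ cells and spermatogonia 9 were listed, with a sum of 165247 TPM in the control and 132820 TPM in the knockdown, led by miR-182-5p, and 2 of the 9 were reduced and 3 raised over 1.5-fold (41.5% and 15.8% of the 607), with a median log2 fold change of 0.19. The lower sum was set by miR-182-5p, which had 142065 and 103395 TPM, and the other 8 had 23182 TPM in the control and 29426 TPM in the knockdown. These 8 did not change alike. The reduced ones were miR-183-5p (10604 and 6889 TPM) and miR-96-5p (289 and 189 TPM). The raised ones were miR-34c-5p (9034 and 16687 TPM), miR-34b-5p (338 and 910 TPM) and miR-221-3p (2037 and 3758 TPM). The exact test called 3 of the 9 lower and 5 higher, beside 21.4% and 10.7% of all 1096 miRNAs; both strands of miR-202 were among the named ones but not listed. The 10 miRNAs of fibroblasts, the type of the feeder cells, had 27675 and 32318 TPM (log2 ratio 0.22, 0.21 to 0.23), led by miR-143-3p, with none at 0, 1 of the 10 raised and 0 reduced over 1.5-fold (15.8% and 41.5% of the 607), 6 of the 10 called higher and 1 called lower by the exact test (10.7% and 21.4% of all 1096), and a median of 0.14. The 5 miRNAs of blood cells had 176 and 34.7 TPM (log2 ratio -2.34, -2.63 to -2.06), led by miR-142a-5p, with none at 0, 2 of the 3 above 1.5 TPM reduced over 1.5-fold (41.5% of the 607) and 2 of the 5 called lower by the exact test (21.4% of all 1096). Of 3 muscle miRNAs 2 were listed, with a sum of 3.14 TPM in the control, where miR-133a-3p led with 2.00 TPM, and 3.76 TPM in the knockdown, where miR-206-3p led with 2.82 TPM. The 9 listed miRNAs named for the germ line were thus present in both libraries, with most of their sum from miR-182-5p, and those named for fibroblasts were present in both. The preset germ line list does not hold every miRNA of germ cells. Whether each named miRNA came only from the cell type it was named for was not tested. The part of differing shares of cells, or of the depth of the libraries, in the decrease of the cluster was not tested.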

How the data were processed

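Small RNA libraries of control and Mov10 knockdown SPCs, 1 per group, were analysed. According to the methods, the authors filtered rRNA reads, trimmed adaptors and mapped reads to miRBase without mismatch, and deposited read counts and TPM values per mature miRNA. What the TPM total contains, and how reads that fit several miRNAs were assigned, is not given in the sources used here. Library totals were obtained as counts divided by TPM. A replicated model could not be fitted, so counts were compared by two-sided exact binomial tests given the totals, and arms by Fisher's exact test, with Benjamini-Hochberg adjustment over all miRNAs or hairpins (Python 3.11.15, scipy 1.17.1); the scripts were tested on simulated counts. TMM factors were from edgeR 4.0.16. Alternatives were other scalings, minimum levels, folds and pseudocounts. All 17 members are named; outside miRNAs were named by seed, by preset lists or by distance to miR-292a-5p. Members and lists were chosen with earlier results of these data known. RNA-seq and CLIP samples were not analysed here.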

Additional observations from a re-analysis of the deposited data

How the results depend on the processing

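The direction of the summed level and of the median of the members was the same under every alternative run. The log2 ratio of the summed level was -0.63 when scaled by reads on listed miRNAs, -0.44 by the median ratio, -0.48 by TMM and -2.41 without scaling, since the log2 ratio of the library totals was -1.72. Scaling by the median ratio shifted all values by 0.25, and the median of the 607 miRNAs became -0.12. A decrease over 1.5-fold, seen for 10 of 16 members in the main comparison, depended on the scaling. It was found for 6 of 16 by the median ratio (31.5% of the 607 miRNAs), 7 by TMM (33.1%) and 16 without scaling (93.9%). A decrease over 2-fold was found for 6 of the 16 (26.5%). Among the 8 members with at least 500 control reads, 6 were reduced over 1.5-fold, beside 36.0% of 258 miRNAs at this depth. Without scaling the median of the members was -2.44, and miR-294-5p (-1.68), miR-292b-5p (-1.64) and miR-292b-3p (-1.65) turned from slightly above to below 0. No member was raised under the other scalings, minimum levels, threshold and pseudocounts. Of the 607 miRNAs, 112 were raised over 1.5-fold when scaled by reads on listed miRNAs, 144 by the median ratio, 141 by TMM and 13 without scaling. The binomial test called 9 members lower by the median ratio (16.7% of all 1096 miRNAs) or TMM (17.1%) and 16 without scaling (55.4%), beside 11 with the deposited TPM (21.4%). The median of the members was -0.48 by the median ratio and -0.52 by TMM. For single members, 59 of 68 recomputed values kept their direction and call; 3 turned as given above, the calls of miR-292a-3p and miR-291b-3p were lost by the median ratio and by TMM, and miR-295-5p (-2.21) and miR-290a-5p (-2.56) were called lower without scaling. No paired analysis was possible because there is 1 library per group, which also means that no replicate could be left out. In the knockdown library, with fewer reads, 3 reads are worth 0.939 TPM, and members at a few TPM have intervals wider than 1 log2 unit.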
